A study of Mus musculus with 8 samples.

Results

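The unfolded protein response and the integrated stress response were described through 41 genes: stress sensors and kinases, the transcription factors they control, endoplasmic reticulum (ER) chaperones, ER-associated degradation genes and Atf4 target genes. The genes came from a list of symbols, chosen with earlier results of these data known. All 41 were among the 55276 gene symbols of the deposited count table. They were measured by bulk RNA sequencing of sorted mouse esophageal epithelial cells. The animals were C57BL6 mice aged 14 to 15 weeks, 2 female and 2 male, and the labels name no transgene and no drug. From each of the 4 animals the live (DAPI negative), integrin beta-1 positive cells were divided by fluorescence of Cyto-ID, a dye that stains autophagic vesicles, into a Cyto-ID Low and a Cyto-ID High fraction. That gave 8 libraries, 4 Low and 4 High, and every comparison is High against Low. Cells of both fractions passed through the same peeling, dispase and trypsin digestion, and staining at 37 °C before the sort. A sort gate on dye uptake sets the groups, so a fraction is a range of fluorescence and not a cell type.

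Proteins that misfold in the ER are sensed by Ern1 (IRE1), Eif2ak3 (PERK) and Atf6. Ern1 splices the Xbp1 messenger RNA, Atf6 is cut to release a transcription factor, and Eif2ak3 phosphorylates the translation factor eIF2 alpha, which slows general protein synthesis while favouring translation of Atf4. Other eIF2 alpha kinases feed the same step from amino acid shortage, heme shortage or double-stranded RNA, and secretory cells such as plasma cells are known for high levels of the ER genes. Gene-level counts show neither Xbp1 splicing nor translation or phosphorylation, so the values below are transcript levels only.

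Promoter sequences are shown first, because several chaperone genes share a known control element in them. Windows from 250 bases before to 50 bases after the annotated start were taken from RefSeq (GRCm38.p6) and were found for 35 of the 41 genes. Both strands were searched for 4 short patterns. The ER stress element, bound by Atf6 with the factor NF-Y, was searched as CCAAT, any 9 bases, then CCACG. An exact match stood in 8 of the 35 genes (22.9%), against 0.137% of the 27025 genes with a window. The 9 matches in those 8 genes are printed in the direction that starts with CCAAT, with the fixed letters in capitals:
Hspa5: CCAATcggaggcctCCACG
Calr: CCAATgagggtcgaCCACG
Canx: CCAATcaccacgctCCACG
Dnajc3: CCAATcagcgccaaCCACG
Creld2: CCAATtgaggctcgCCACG
Pdia6: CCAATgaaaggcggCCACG
Syvn1: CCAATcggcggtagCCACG
Hsp90b1, upstream match: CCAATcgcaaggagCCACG
Hsp90b1, downstream match: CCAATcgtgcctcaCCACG
The matches began between 212 and 44 bases before the annotated start. Outside the fixed letters the middle 9 bases differed between all 9. A match is a description of letters and not a measured site.

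Whole windows are given for 4 genes that show how the patterns lie, each on the strand of its gene and with the matched letters in capitals. Hspa5 (chr2:34771840-34772139, plus strand) held 1 ER stress element and Hsp90b1 (chr10:86705395-86705694, minus strand) held 2. Herpud1 (chr8:94386179-94386478, plus strand) held the ER stress element II (ATTGG, any base, CCACG) as well as the C/EBP-ATF element TGATGCAA, a pattern bound by Atf4 with C/EBP partners, here on the opposite strand. Chac1 (chr2:119350992-119351291, plus strand) held the C/EBP-ATF element on the opposite strand.
Hspa5: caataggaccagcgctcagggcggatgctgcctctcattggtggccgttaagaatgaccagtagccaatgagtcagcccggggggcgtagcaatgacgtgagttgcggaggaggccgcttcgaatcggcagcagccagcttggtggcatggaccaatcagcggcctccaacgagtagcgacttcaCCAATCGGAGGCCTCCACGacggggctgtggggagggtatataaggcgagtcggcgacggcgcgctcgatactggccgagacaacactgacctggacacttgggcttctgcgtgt
Hsp90b1: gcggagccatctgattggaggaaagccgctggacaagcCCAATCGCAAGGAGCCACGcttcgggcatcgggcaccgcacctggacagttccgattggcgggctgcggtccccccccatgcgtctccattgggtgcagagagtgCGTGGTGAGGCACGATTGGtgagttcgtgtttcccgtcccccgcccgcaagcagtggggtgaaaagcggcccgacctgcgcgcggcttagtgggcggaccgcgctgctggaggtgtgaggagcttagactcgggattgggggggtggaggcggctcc
Herpud1: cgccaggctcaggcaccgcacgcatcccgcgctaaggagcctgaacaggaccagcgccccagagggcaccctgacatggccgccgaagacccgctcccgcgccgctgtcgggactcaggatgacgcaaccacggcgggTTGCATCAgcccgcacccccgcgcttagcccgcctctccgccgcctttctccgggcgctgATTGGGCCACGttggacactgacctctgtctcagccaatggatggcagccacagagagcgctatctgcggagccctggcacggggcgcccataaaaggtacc
Chac1: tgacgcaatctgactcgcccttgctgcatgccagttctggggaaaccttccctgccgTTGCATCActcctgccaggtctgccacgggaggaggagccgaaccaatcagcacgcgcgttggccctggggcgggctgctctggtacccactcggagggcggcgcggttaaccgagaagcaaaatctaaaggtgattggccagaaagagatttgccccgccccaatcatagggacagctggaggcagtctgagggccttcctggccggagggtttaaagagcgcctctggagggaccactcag
Element II stood in 2 of the 35 genes, Herpud1 and Dnajb11 (5.71%), against 0.0444% of all genes with a window. The C/EBP-ATF element stood in 3, Atf3, Chac1 and Herpud1 (8.57%), against 1.03% of all genes. The UPR element TGACGTGG stood in 0 of the 35 genes, against 0.714% of all genes. Either ER stress element was present in 8 of 12 chaperone genes with a window and in 2 of 4 ER-associated degradation genes, and in 0 genes of the other roles.

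The libraries held 26285150 to 28599954 counts in the Low fraction and 27486049 to 29301054 in the High fraction. The fractions differed in keratinocyte state. All 10 basal keratinocyte markers fell in the High fraction (Krt5 by 3.38 on the log2 scale) and all 10 suprabasal markers rose (Krt4 by 3.75). Itgb1, whose protein was used in the sort, fell by 2.44. In counts-per-million (CPM), suprabasal markers summed to 140143 to 238979 in the High libraries and 8551 to 25313 in the Low libraries, and the scaling factors (trimmed mean of M values, TMM) were 0.679 to 0.944 in High and at least 1.16 in Low. Bulk RNA cannot tell a different mix of cells from a different amount of RNA per cell. Gastric gland markers summed to 19.8 CPM in the Low and 117 CPM in the High library of Female2, against 0.66 to 1.39 CPM elsewhere. Of the plasma cell markers, Mzb1 was at 0 to 2 counts and Tnfrsf17 at 0 or 1 count in each library, and Jchain was at 32 to 70 counts in the Low and 2 to 73 in the High libraries. Prdm1, the remaining gene of that list beside Igkc and Igha, was called higher, at 45.3 CPM in Low and 253 CPM in High (a log2 change of 2.49, edgeR adjusted p = 0.000259). High Male2 had 0 counts of Igkc and of Igha, and it was the lowest library for other non-epithelial lists too: leukocyte markers summed to 15.8 CPM there against 44.8 to 119 CPM in the other High libraries, fibroblast markers to 41.2 against 157 to 486, endothelial markers to 3.14 against 12.2 to 38.2 and muscle markers to 5.09 against 18.6 to 54.9. High Female2 was the second lowest in each of these lists. The 18 genes of the dissociation response summed to 17795 to 22032 CPM in the Low and 15331 to 31708 CPM in the High libraries. With TMM scaling 4 of the 18 were called higher and 1 lower, where 23.4% and 25.3% of all genes were. With total counts alone 3 were called higher and 6 lower, where 12.6% and 49.1% of all genes were. The part of these differences in the results below was not tested.

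With TMM scaling, 10 of 14 ER chaperone and folding genes and 4 of 4 ER-associated degradation genes were called higher in the Cyto-ID High cells, where 23.4% of all genes were. Scaled by total counts alone, 3 of these 18 were called higher (Calr, Sel1l and Edem1), where 12.6% of all genes were. With TMM scaling, the ER stress sensors Ern1, Eif2ak3 and Atf6, the eIF2 alpha phosphatase subunits and Atf4 itself were not called. Of the 41 genes, 40 passed the filter on low counts. Ern2, an IRE1 relative of mucous epithelia, did not pass, with 0 to 6 counts in each library. By edgeR's quasi-likelihood test with Benjamini-Hochberg adjustment over all 17344 genes tested, 25 of the 40 were called (62.5%), where 48.7% of all genes were. Called higher were 20 of 40 (50%, against 23.4% of all genes) and called lower 5 of 40 (12.5%, against 25.3%). The fractions did not overlap in CPM for 23 of 40 genes (57.5%), against 48.6% of all genes. A difference of at least 2-fold was found for 6 of the genes called higher, Atf5, Calr, Sel1l, Edem1, Trib3 and Chac1 (15% of the 40, against 13.3% of all genes), and for 1 called lower, Eif2ak4 (2.5%, against 15.3%). In both directions together 17.5% of the 40 were called with at least 2-fold, a smaller share than the 28.6% of all genes. All 20 genes called higher were higher in 4 of 4 animals, and all 5 called lower were lower in 4 of 4. The calls come from the same libraries, so these counts add no support to them. Atf6, Ddit3, Eif2ak2, Pdia6 and Hyou1 were also higher in 4 of 4 animals, without a call.

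Over the 40 genes the log2 fold changes had a median of 0.51, beside −0.09 over all genes tested. Scaling by total counts alone moved these medians to −0.046 and −0.64 and left 7 of 40 genes called higher (17.5%, against 12.6% of all genes) and 10 lower (25%, against 49.1%). The 7 were Atf5, Calr, Sel1l, Edem1, Trib3, Chac1 and Asns. The added lower calls were Ern1, Eif2ak1, Ppp1r15a, Phgdh and Slc3a2. The sign turned from positive to negative for 13 genes: Atf4, Atf6, Ddit3, Eif2ak2, Eif2ak3, Ppp1r15a, Ppp1r15b, Hsp90b1, Canx, Pdia3, Pdia4, Pdia6 and Phgdh. High libraries carry far more suprabasal keratin transcripts, as given above. The directions below refer to TMM scaling, and each group is also given with total counts.

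**Figure D1:**
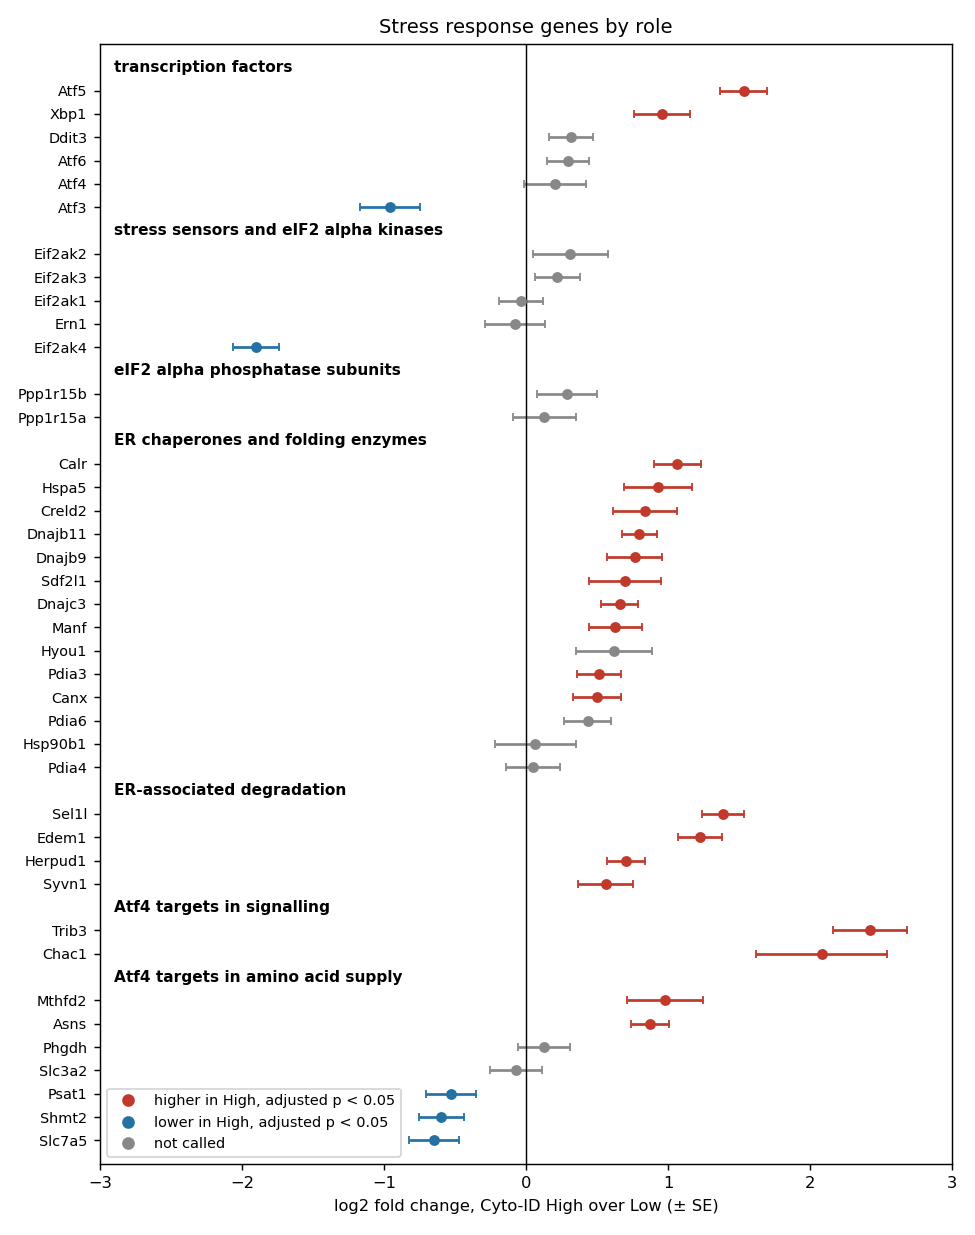
Log2 fold change of Cyto-ID High over Low for the 40 genes tested, in blocks by role, with bars of 1 standard error and colour for the call at an adjusted p of 0.05 with TMM scaling. All 4 ER-associated degradation genes and 10 of 14 chaperone genes lie to the right and are called, Trib3 lies farthest right at 2.42 and Eif2ak4 farthest left at −1.90; with total counts alone 2 of the 4 and 1 of the 14 are called higher.

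Among the 6 transcription factors, Xbp1 and Atf5 rose and Atf3 fell with TMM scaling, while Atf4, Atf6 and Ddit3 were not called. That is 33.3% higher and 16.7% lower, against 23.4% and 25.3% of all genes. Under total-count scaling, 1 was called higher and 1 lower (16.7% each, against 12.6% and 49.1%). Xbp1, the target of IRE1 splicing and an activator of ER genes, was at 122, 73.8, 145 and 102 CPM in the Low libraries of Female1, Female2, Male1 and Male2 and at 191, 221, 220 and 224 CPM in their High libraries. Every High library was above every Low one, and the Low libraries were spread more widely. Its log2 fold change came to 0.96 (SE 0.20, edgeR adjusted p = 0.00266), and with total counts alone it was 0.40 with no call (adjusted p = 0.0926). Atf5, an Atf4-related factor that is also controlled in translation, was at 42.9, 36.9, 36.2 and 41.7 CPM in the Low and at 101, 103, 104 and 151 CPM in the High libraries in the same order of animals. The fractions stood far apart, with High Male2 above the other High libraries. In the fit it changed, on the log2 scale, by 1.53 (SE 0.16, edgeR adjusted p = 6.02e-05). The annotated exons of Atf5 overlap those of Il4i1 and Nup62 on the other strand, and whether counting used strand is not known here.

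Atf3, an immediate stress-inducible repressor and itself an Atf4 target, went the other way. It was at 2264, 2279, 3247 and 2199 CPM in the Low and at 941, 1416, 1184 and 1598 CPM in the High libraries of Female1, Female2, Male1 and Male2. Each High library was below each Low library, with Low Male1 highest. The log2 fold change was −0.96 (SE 0.21, edgeR adjusted p = 0.0040). Jun, an immediate early gene from the dissociation list and a partner of Atf3, was also called lower, at −0.84, while Ier2, Btg2, Dnajb1 and Hspb1 of that list were called higher.

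Atf4, the central factor of the integrated stress response, was at 521, 283, 508 and 493 CPM in the Low and at 443, 509, 445 and 675 CPM in the High libraries. The fractions overlapped, and the animals split: Female1 and Male1 were lower in High, Female2 and Male2 higher. Its log2 fold change came to 0.20 (SE 0.22, edgeR adjusted p = 0.491). Ddit3 (CHOP), the factor linked to death under lasting ER stress, was at 18.7, 14.5, 20.5 and 15.0 CPM in the Low and at 20.2, 18.2, 24.2 and 23.2 CPM in the High libraries. Each animal had the higher value in its High library, yet the fractions overlapped. In the fit it changed, on the log2 scale, by 0.32 (SE 0.16, edgeR adjusted p = 0.124), and DESeq2 called it higher, at an adjusted p that rounds to 0.05. Atf6 had 70.0 ± 11.1 CPM in the Low and 86.0 ± 5.42 CPM in the High fraction (SD, n = 4), which is 0.29 as a log2 change (SE 0.15, edgeR adjusted p = 0.132). DESeq2 called Atf6 higher, at an adjusted p of 0.0398, and so did edgeR without Low Female1, at 0.0481.

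Per kilobase of annotated exon, Atf3 had the highest mean level of the 40 genes in both fractions, at 1159 CPM per kb in Low and 596 in High. Atf4 stood at 191 and 220 CPM per kb and Hspa5 at 181 and 342. The lowest levels in the Low fraction were those of Chac1, Trib3 and Eif2ak4, at 1.03, 1.60 and 2.04 CPM per kb. In the High fraction Chac1 and Trib3 stood at 4.19 and 8.47 CPM per kb and Eif2ak4 at 0.55.

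**Figure D2:**
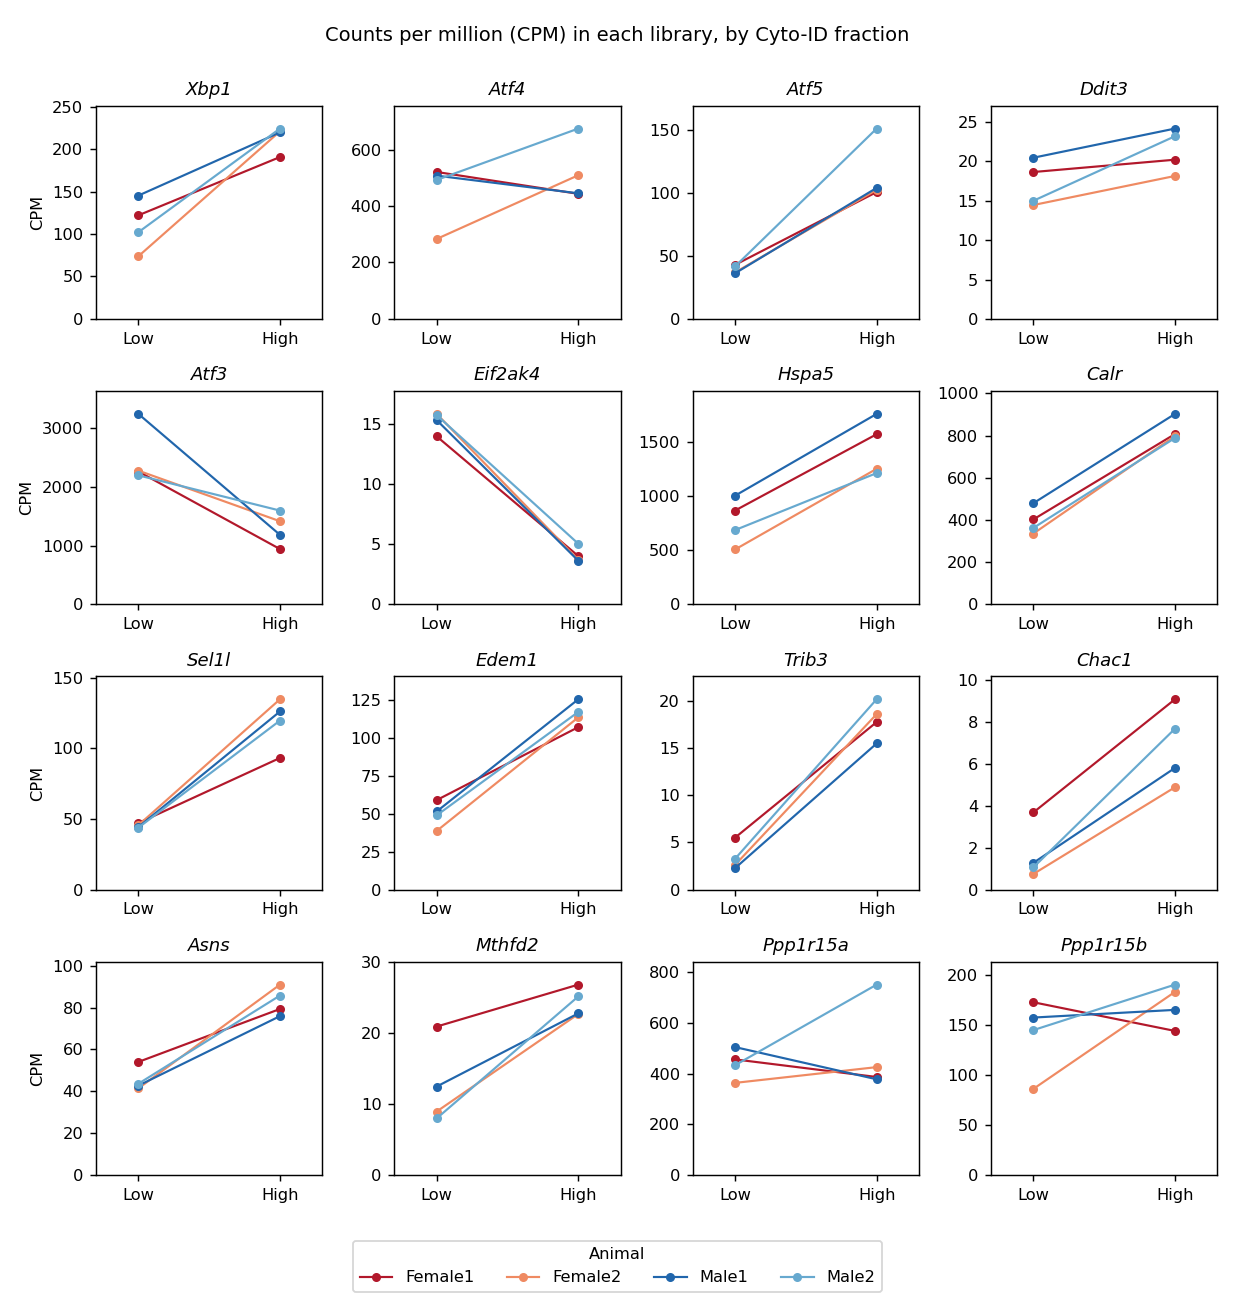
CPM of 16 genes in each library, with 1 line per animal from its Cyto-ID Low to its Cyto-ID High library and axes that start at 0. Lines for Xbp1, Atf5, Ddit3, Hspa5, Calr, Sel1l, Edem1, Trib3, Chac1, Asns and Mthfd2 go up in 4 of 4 animals, those of Atf3 and Eif2ak4 go down, and those of Atf4, Ppp1r15a and Ppp1r15b run in both directions. With total counts alone the fitted changes of Atf4, Ddit3, Ppp1r15a and Ppp1r15b turned negative, at −0.37, −0.24, −0.47 and −0.28.

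Of the 5 stress sensors and kinases tested, 0 rose and 1 fell (20%, near the 25.3% of all genes). It was Eif2ak4 (GCN2), the kinase that reads uncharged transfer RNA under amino acid shortage. It was at 14.0, 15.9, 15.3 and 15.8 CPM in the Low and at 4.01, 3.70, 3.62 and 5.04 CPM in the High libraries. The Low values lay close together and far above all High values. The log2 fold change was −1.90 (SE 0.16, edgeR adjusted p = 2.08e-05), a level 3.73-fold lower in High. The ER sensors were not called. Ern1 had 86.5 ± 24.0 CPM in Low and 82.0 ± 12.3 in High (SD, n = 4; log2 fold change −0.08, SE 0.21), and Eif2ak3 at 19.4 ± 3.57 and 22.6 ± 1.22 (0.22, SE 0.16). Eif2ak1 (HRI), which senses heme shortage and mitochondrial stress, changed by −0.04 (SE 0.16), and Eif2ak2 (PKR), the double-stranded RNA kinase, by 0.31 (SE 0.26). Their adjusted p by edgeR ran from 0.289 to 0.877. Scaled by total counts alone, 3 of the 5 were called lower, Eif2ak4, Ern1 and Eif2ak1 (60%, against 49.1% of all genes), and 0 higher.

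Both regulatory subunits of the eIF2 alpha phosphatase, which end the response by dephosphorylating eIF2 alpha, overlapped between the fractions. Ppp1r15a (GADD34), the stress-inducible subunit, was at 457, 364, 505 and 434 CPM in the Low and at 387, 426, 378 and 752 CPM in the High libraries. It was lower in High in Female1 and Male1 and higher in Female2 and Male2, as Atf4 was. Its log2 fold change came to 0.13 (SE 0.22, edgeR adjusted p = 0.686), and with total counts alone it was −0.47 (adjusted p = 0.0306). Ppp1r15b (CReP), the constitutive subunit, was at 173, 86.0, 157 and 145 CPM in the Low and at 144, 183, 165 and 190 CPM in the High libraries. Low Female2 stood lowest, and High Female1 was below its Low library. In the fit it changed, on the log2 scale, by 0.29 (SE 0.21, edgeR adjusted p = 0.305).

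In the largest group, the ER chaperones and folding enzymes, 10 of 14 rose with TMM scaling (71.4%, against 23.4% of all genes) and 0 fell, with a median log2 fold change of 0.64. Under total-count scaling, 1 was called higher (7.14%, against 12.6% of all genes) and 0 lower, at a median of 0.10. Summed over the 14 genes, the level was 2977 ± 552 CPM in the Low and 4727 ± 600 CPM in the High fraction (SD, n = 4), and the lowest High library (4023) was above the highest Low library (3599). Hspa5 (BiP), the main ER chaperone, was at 865, 505, 1002 and 684 CPM in the Low and at 1569, 1250, 1757 and 1211 CPM in the High libraries. The fractions did not overlap, and in each of them Female1 and Male1 were above Female2 and Male2. The log2 fold change was 0.93 (SE 0.24, edgeR adjusted p = 0.00892), and with total counts alone it was 0.40 with no call (adjusted p = 0.227). Calr, the calcium-binding lectin chaperone of glycoproteins, was at 402, 335, 479 and 362 CPM in the Low and at 807, 799, 903 and 789 CPM in the High libraries. High libraries lay close together and all lay above the Low ones. Its log2 fold change came to 1.07 (SE 0.16, edgeR adjusted p = 0.000482), the largest of the group.

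The other called chaperone genes changed less. Dnajb11 and Dnajc3, co-chaperones of Hspa5, rose by 0.80 (SE 0.12) and 0.66 (SE 0.13) on the log2 scale, and Dnajb9 (ERdj4), a co-chaperone that also restrains IRE1, rose by 0.76 (SE 0.19). Creld2, a disulfide isomerase-like protein, rose by 0.84 (SE 0.23). Manf, a secreted ER stress factor, rose by 0.63 (SE 0.19), and Sdf2l1, a partner of ERdj3, by 0.70 (SE 0.25). Canx, the membrane lectin chaperone, rose by 0.50 (SE 0.17) and Pdia3, the disulfide isomerase that works with it, by 0.52 (SE 0.15), where total counts alone gave −0.052 and −0.040 with no call. Without both libraries of Female2, whose gastric markers are given above, 6 chaperone genes were called, where 21.6% of all genes were called higher. Canx, Pdia3, Sdf2l1 and Manf were then not called, at adjusted p of 0.121, 0.0714, 0.0895 and 0.0675 by edgeR.

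Of the group, 4 genes were not called. Hsp90b1 (GRP94), the ER member of the Hsp90 family, was at 531, 360, 543 and 310 CPM in the Low and at 549, 400, 601 and 273 CPM in the High libraries. In both fractions Female1 and Male1 were the highest and Male2 the lowest. In the fit it changed, on the log2 scale, by 0.06 (SE 0.28, edgeR adjusted p = 0.883), beside 2 ER stress elements in its promoter window. Pdia4, another disulfide isomerase, changed by 0.05 (SE 0.19). Pdia6, which attenuates IRE1 signalling, did not overlap between fractions, at 135 to 178 CPM in Low and 181 to 236 in High, 0.43 as a log2 change (SE 0.17, edgeR adjusted p = 0.0541). Hyou1, a nucleotide exchange factor of Hspa5, was higher in High in 4 of 4 animals, by 0.62 as a log2 change (SE 0.27, edgeR adjusted p = 0.0847). With the animal as a block in the fit, Pdia6 and Hyou1 were called, at adjusted p of 0.0139 and 0.00284 by edgeR. That gave 12 of 14 called higher, where 25.4% of all genes were in the same fit.

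The chaperone genes were also read by their promoter windows. The 8 with either element had a median log2 fold change of 0.73 (range 0.06 to 1.07), and 6 were called higher (75%, against 23.4% of all genes). The 4 with a window and neither element (Pdia3, Pdia4, Dnajb9 and Sdf2l1) had a median of 0.61 (0.05 to 0.76), and 3 were called higher (75%). With total counts alone 1 of the 8 (Calr) and 0 of the 4 were called higher, at medians of 0.17 and 0.07, and Hsp90b1, Canx, Pdia6, Pdia3 and Pdia4 were negative. Over all roles, 8 of the 10 genes with either element (80%) and 11 of the 25 without (44%) were called higher with TMM scaling. Scaled by total counts alone, the order of these shares turned, at 1 of 10 (10%) and 6 of 25 (24%), against 12.6% of all genes. The medians kept their order, at 0.68 with an element and 0.31 without under TMM, and 0.11 and −0.29 under total counts. The difference between these subsets was not tested.

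All 4 ER-associated degradation genes, whose products carry misfolded proteins out of the ER for destruction, rose with TMM scaling (100%, against 23.4% of all genes), and with total counts alone 2 of the 4 were called higher (50%, against 12.6%). Their summed level was 223 ± 32.5 CPM in Low and 433 ± 47.7 CPM in High (SD, n = 4). Sel1l, the scaffold of the HRD1 ubiquitin ligase complex, was at 47.1, 45.6, 44.2 and 43.8 CPM in the Low and at 93.2, 135, 126 and 120 CPM in the High libraries. Low libraries were nearly alike, and all High libraries were far above them. The log2 fold change was 1.39 (SE 0.15, edgeR adjusted p = 5.69e-05). Edem1, a lectin that picks out misfolded glycoproteins, was at 58.9, 38.6, 51.4 and 48.9 CPM in the Low and at 107, 113, 125 and 117 CPM in the High libraries. Here too the fractions did not overlap. Its log2 fold change came to 1.22 (SE 0.15, edgeR adjusted p = 0.000148). Herpud1, a membrane component of the complex and a target of both stress branches, rose by 0.70 (SE 0.13). Syvn1 (HRD1), the ligase itself, rose by 0.56 (SE 0.19, edgeR adjusted p = 0.0364), and its fractions overlapped: Low Male1, at 84.4 CPM, was above High Female2, at 81.1 CPM. Its call was lost without both Male2 libraries, at an adjusted p of 0.115 by edgeR.

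With TMM scaling Trib3 and Chac1, signalling targets of Atf4 and Ddit3, showed the largest differences of the 40 genes, from low levels. Both were called higher under TMM and under total counts alone. With total counts Eif2ak4 changed more, by −2.47, against 1.86 for Trib3 and 1.54 for Chac1. Trib3, a pseudokinase that dampens Atf4 and Akt signalling, was at 5.50, 2.61, 2.27 and 3.26 CPM in the Low and at 17.8, 18.6, 15.5 and 20.2 CPM in the High libraries. High values were close together and none approached the Low ones. In the fit it changed, on the log2 scale, by 2.42 (SE 0.26, edgeR adjusted p = 6.36e-05), a 5.36-fold higher level. Chac1, which degrades glutathione, was at 3.68, 0.74, 1.27 and 1.06 CPM in the Low and at 9.07, 4.88, 5.80 and 7.67 CPM in the High libraries. Low Female1 stood above the other Low libraries but below all High ones. The log2 fold change was 2.08 (SE 0.46, edgeR adjusted p = 0.00416), which rests on 27 to 119 counts per Low library and 112 to 235 per High library.

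Of the 7 Atf4 targets of amino acid supply, 2 rose (28.6%, near the 23.4% of all genes) and 3 fell (42.9%, against 25.3%) with TMM scaling, at a median log2 fold change of −0.07. Under total-count scaling, 1 was called higher (14.3%, near the 12.6% of all genes) and 5 lower (71.4%, against 49.1%). Asns, asparagine synthetase, was at 54.0, 41.4, 42.7 and 43.6 CPM in the Low and at 79.4, 91.0, 76.0 and 85.8 CPM in the High libraries. Mthfd2, the mitochondrial one-carbon enzyme, was at 20.9, 8.94, 12.5 and 7.97 CPM in the Low and at 26.8, 22.7, 22.8 and 25.2 CPM in the High libraries. Neither gene overlapped between fractions, although Low Female1 came close to the High range for Mthfd2. Log2 fold changes were 0.87 (SE 0.13, edgeR adjusted p = 0.000518) for Asns and 0.98 (SE 0.27, edgeR adjusted p = 0.0131) for Mthfd2. With total counts alone Mthfd2 changed by 0.43 with no call (edgeR adjusted p = 0.209).

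From the same list, 3 genes fell. Shmt2, which feeds one-carbon units from serine in mitochondria, had 114 ± 4.25 CPM in Low and 75.5 ± 15.4 CPM in High (SD, n = 4), a log2 change of −0.60 (SE 0.16, edgeR adjusted p = 0.0104). Slc7a5 (LAT1), the importer of large neutral amino acids, fell by 0.65 (SE 0.17, edgeR adjusted p = 0.0119), with High Male2, at 67.9 CPM, above Low Female2, at 62.0 CPM. Psat1, an enzyme of serine synthesis, fell by 0.53 (SE 0.18, edgeR adjusted p = 0.0325). Phgdh, the first enzyme of serine synthesis, and Slc3a2, the heavy chain that carries Slc7a5, were not called, at log2 fold changes of 0.12 (SE 0.18) and −0.07 (SE 0.18). High Male2 was the highest of the 8 libraries for Phgdh, at 77.6 CPM. With total counts alone Phgdh changed by −0.46 (adjusted p = 0.0160), as a lower call.

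Calls near the threshold rested on single libraries for 6 of the 25 genes. The Canx call was lost without Low Female1, Low Female2, High Female2, High Male1 or Low Male2, at edgeR adjusted p of 0.0749, 0.0731, 0.0892, 0.0988 and 0.0848. Pdia3 lost its call without High Female2 (0.0561). Sdf2l1 lost it without High Female1, Low Female2, Low Male1, High Male1 or Low Male2 (0.12, 0.126, 0.0681, 0.161 and 0.122). For Manf this held without Low Female2, High Male1 or Low Male2 (0.0595, 0.0642 and 0.0557). Syvn1 lost its call without High Female1, Low Female2, High Female2, High Male1, Low Male2 or High Male2 (0.069, 0.0528, 0.0584, 0.0641, 0.0686 and 0.0725). Psat1 lost its call without High Female1, Low Female2, Low Male1 or High Male1 (0.087, 0.0559, 0.058 and 0.099). Pdia6 gained a call without Low Male1 (0.0488) or High Male2 (0.0375).

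The size of the difference varied between animals. Over the 40 genes the median High minus Low difference in log2 CPM was 0.78 for Female2, 0.49 for Male2, 0.41 for Male1 and 0.35 for Female1, while that over all genes lay between −0.09 and −0.07. Among the 20 genes called higher, the difference was largest in Female2 for 13 and smallest in Female1 for 12. Low Female2 was the lowest Low library for 23 of the 40 genes. Without both Female2 libraries 16 genes were called higher and 5 lower, at a median of 0.45, where 21.6% and 21.7% of all genes were. High Male2 was the highest High library for 16 of the 40 genes. Without both Male2 libraries 19 were called higher and 4 lower, at a median of 0.53, where 20.4% and 20.7% of all genes were. The part of the low non-epithelial markers of High Male2 was not tested. Low Female1 and Low Male1 were the highest Low library for 17 and 18 genes. Within a fraction the median SD of log2 CPM over the 40 genes was 0.26 in Low and 0.23 in High, beside 0.24 and 0.30 over all genes. The effect of the fraction was compared between the sexes as an interaction, and 0 of the 40 genes were called and 0 had an unadjusted p under 0.05 by edgeR. Over all 17344 genes 0 were called and 19 had an unadjusted p under 0.05. Chance alone would give about 1 in 20 genes, far more than 19. With 2 animals per sex the test was too conservative to show whether the difference depends on sex.

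**Figure D3:**
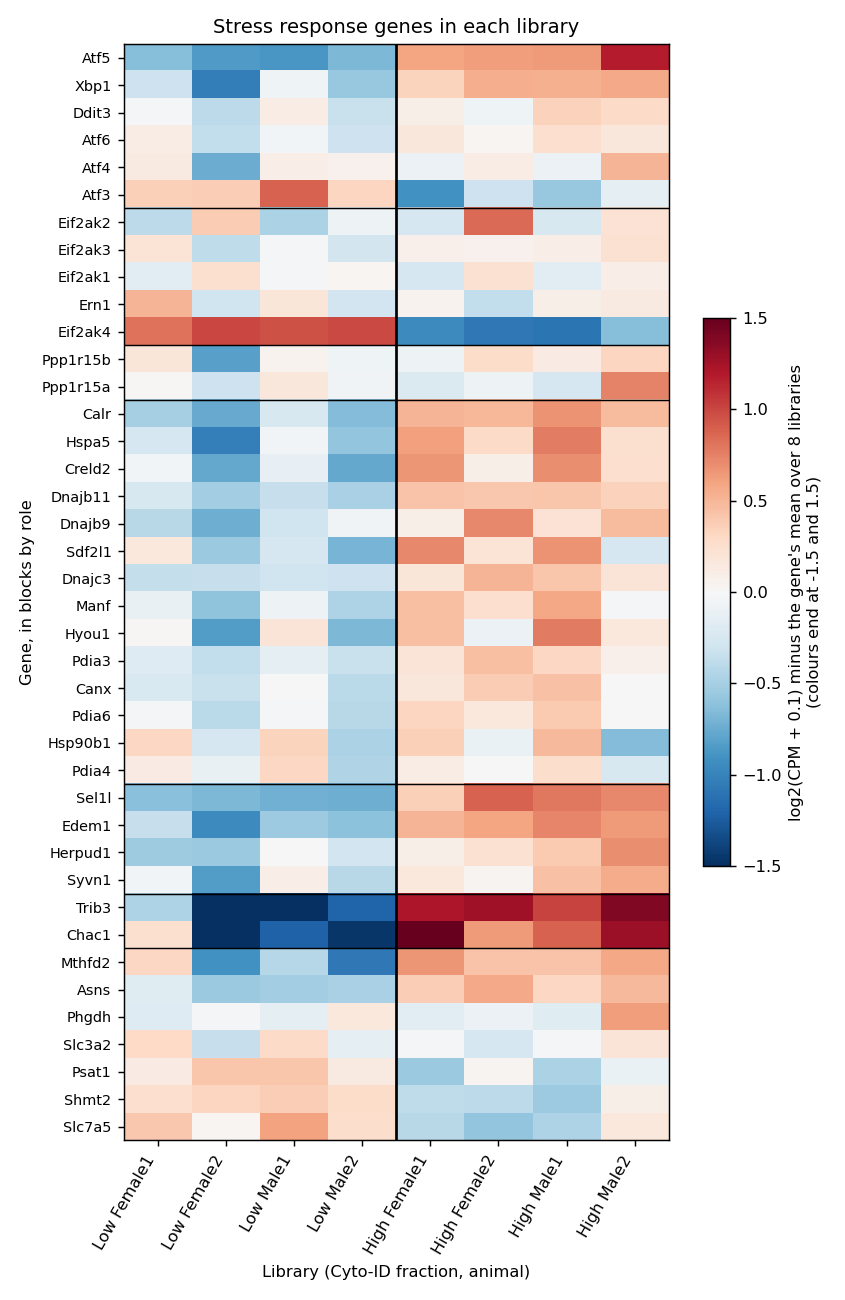
Log2(CPM + 0.1) of the 40 genes in each of the 8 libraries, as the difference from the gene's own mean over the libraries, in blocks by role and with a line between the Cyto-ID Low and High libraries. Chaperone, degradation, Trib3 and Chac1 rows are mostly below their mean in the Low and above it in the High libraries, and Low Female2 holds the lowest Low value for 23 of the 40 genes.

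Other genes of the same pathways were counted from lists of 97 genes that hold none of the 41. Of these, 95 were tested, and 51 rose and 12 fell with TMM scaling (53.7% and 12.6%, against 23.4% and 25.3% of all genes). Total counts alone gave 22 higher and 34 lower (23.2% and 35.8%, against 12.6% and 49.1% of all genes). The median log2 fold change was 0.47. Cytosolic transfer RNA synthetases, many of them known Atf4 targets, had 14 of 17 called higher and 0 lower (82.4% higher, against 23.4% of all genes), led by Gars at 1.55 (SE 0.19) and Cars at 1.49 (SE 0.18). Scaled by total counts alone, 5 were higher and 2 lower (29.4% and 11.8%, against 12.6% and 49.1%). Subunits of eIF2 and its exchange factor eIF2B, the complex that eIF2 alpha phosphorylation blocks, had 6 of 8 called higher and 0 lower (75% higher), led by Eif2b5 at 1.06 (SE 0.16) and Eif2b4 at 0.98 (SE 0.15). Under total-count scaling, 2 were higher and 2 lower (25% each, against the same 12.6% and 49.1%).

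The remaining ER lists gave 10 of 14 other degradation genes called higher and 0 lower (71.4% higher, against 23.4% of all genes), with Derl1 at 0.94 (SE 0.12) and Os9 at 0.84 (SE 0.15). With total counts alone 2 were higher and 4 lower (14.3% and 28.6%, against 12.6% and 49.1%). Among 20 other folding and translocation genes 9 were higher and 1 lower (45% and 5%, against 23.4% and 25.3% of all genes). Scaled by total counts alone, 3 were higher and 8 lower (15% and 40%, near the 12.6% and 49.1% of all genes). P4hb, the disulfide isomerase PDI, stood out with 465 ± 70.6 CPM in Low and 2167 ± 208 CPM in High (SD, n = 4), which is 2.22 as a log2 change (SE 0.18, edgeR adjusted p = 1.83e-05). Ero1l, the oxidase that recharges PDI, rose by 1.25 (SE 0.14).

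Within the Atf6 and Creb3 list, 3 of 10 were called higher and 4 lower with TMM scaling (30% and 40%, against 23.4% and 25.3% of all genes). Total counts alone gave 2 and 5 (20% and 50%, against 12.6% and 49.1%). Creb3l1 (OASIS), an ER-anchored factor of secretory cells, had 1.19 ± 0.70 CPM in Low and 14.3 ± 3.67 CPM in High, which is 3.59 as a log2 change (SE 0.41, edgeR adjusted p = 8.37e-05). Wfs1, an ER membrane protein, rose by 1.02 (SE 0.19). Mbtps1, the site-1 protease that cuts Atf6, fell by 1.18 (SE 0.12), and Creb3l2 fell by 0.67 (SE 0.13).

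Other stress factors and targets had 6 of 12 tested genes higher and 1 lower (50% and 8.33%, against 23.4% and 25.3% of all genes). Under total-count scaling, 6 were higher and 4 lower (50% and 33.3%, against 12.6% and 49.1%). Nupr1, a small stress-induced chromatin protein, rose by 2.02 (SE 0.18) and Cebpb, a C/EBP partner of Atf4, by 1.99 (SE 0.23). Vldlr fell by 1.42 (SE 0.24). Of further amino acid and one-carbon genes, 3 of 14 rose (21.4%, near the 23.4% of all genes) and 6 fell (42.9%, against 25.3%), and total counts alone gave 2 and 9 (14.3% and 64.3%, against 12.6% and 49.1%). Aldh1l2, a mitochondrial folate enzyme, rose by 2.89 (SE 0.26) and Slc7a11, the cystine importer, by 2.77 (SE 0.28). Slc1a4, a carrier of small neutral amino acids, fell by 3.34 (SE 0.25) and Shmt1, the cytosolic partner of Shmt2, by 2.05 (SE 0.17).

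**Figure D4:**
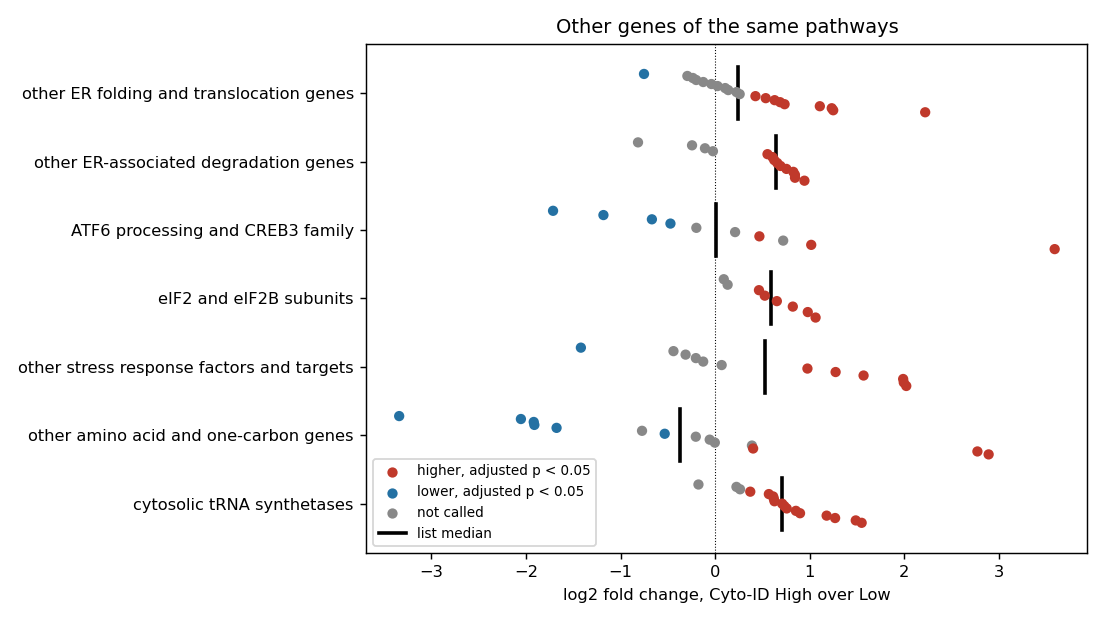
Log2 fold change of Cyto-ID High over Low for each tested gene of the 7 lists of other pathway genes, with a bar at the list median and colour for the call with TMM scaling. Synthetases, eIF2 and eIF2B subunits and other degradation genes lie mostly to the right, and the amino acid list reaches from −3.34 to 2.89; with total counts alone 5 of the 17 synthetases are called higher.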

How the data were processed

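Bulk RNA from 8 libraries was measured. Raw counts are what the authors deposited, in 1 table with a row per symbol. STAR 2.7.3, DESeq2 and the build GRCm38 are named, per the submitters' processing notes. Counting tool, annotation and strandedness are not given in the sources used here. No row lacked a gene name.

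Libraries were grouped by the fraction label. The fit used edgeR 4.0.16 (R 4.3.3): filterByExpr, TMM, glmQLFit and glmQLFTest on all 8 libraries, with terms for sex and fraction, and Benjamini-Hochberg adjustment at 0.05. Each standard error was derived from the F statistic. TMM-scaled CPM are printed. P-values of this fit rest on the spread between libraries that the sex and fraction terms leave, with 4 animals in all. It had no term for the animal, so pairing was used only in the alternative with the animal as a block. No molecular identifiers are named.

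The 41 genes and all lists were chosen with earlier results of these data known. Values in every library are given for Hspa5, Xbp1, Atf4, Ddit3 and Atf3, and for the 2 called genes of each role with the largest change (by level where none was called). Hsp90b1 was added after its values were seen. Of the other pathway genes, up to 2 per direction and list with a mean of at least 5 CPM are named. Alternatives were RLE size factors, total counts, other filters, DESeq2 1.42.0, limma-voom (limma 3.58.1), no covariate, the animal as a block and leaving out libraries. Leaving out both libraries of Female2 or of Male2 was chosen after seeing the data.

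Same-named libraries were paired by animal name. Their deviations from the fraction means correlated at 0.43, 0.32, −0.02 and 0.28 (Female1, Female2, Male1, Male2) across genes, which are not independent replicates. Libraries of different animals correlated at −0.37 to 0.35 (at most for Low Female1 and High Male1). High Female1, High Female2 and High Male2 correlated best with the Low library of their own animal, and High Male1 did not. The correlations therefore do not set every pair apart, and the pairing rests on the animal names. The procedure was tested on simulated data for High against Low: of 197 changed genes with a log2 size of 1.5, among 16919 tested, 70.6% were recovered with 8 other calls. In the measured libraries 48.7% of all genes were called, and the median log2 fold change over the 40 genes was 0.51. Recovery with that large a share of genes changed, or at sizes below 1.5, was not tested. Exons and coordinates of genes were taken from GENCODE M21 (GRCm38) by symbol.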

Additional observations from a re-analysis of the deposited data

Results flagged for a closer look

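In 6 of the 80 sets of 4 libraries of 1 fraction and 1 gene, the highest or lowest library stood apart from the other 3, by its gap to the nearest relative to the whole range. Chance alone gives about 1 in 20 such sets. Atf4 was lowest in Low Female2, at 283 CPM, with the other Low libraries at 493 to 521. Atf3 was highest in Low Male1, at 3247 CPM, against 2199 to 2279. Atf5 was highest in High Male2, at 151 CPM, against 101 to 104. Xbp1 was lowest in High Female1, at 191 CPM, against 220 to 224. Ern1, the IRE1 sensor, was lowest in High Female2, at 63.8 CPM, against 85.8 to 90.7. Phgdh was highest in High Male2, at 77.6 CPM, against 44.2 to 47.0. For Atf5, Atf3 and Xbp1 the fractions did not overlap with these libraries included.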

How the results depend on the processing

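Scaling decided most. With total counts alone, 7 of the 41 genes were called higher and 10 lower, the median log2 fold change was −0.046, and 22 related genes were called higher and 34 lower. The sign turned negative for 13 of the 40 genes. Among them were Atf4 (−0.37), Atf6 (−0.26), Ddit3 (−0.24), Eif2ak2 (−0.29), Eif2ak3 (−0.34), Ppp1r15b (−0.28), Hsp90b1 (−0.45), Pdia4 (−0.49) and Pdia6 (−0.11), not called under either scaling. The others were Ppp1r15a (−0.47, adjusted p = 0.0306), Canx (−0.052, adjusted p = 0.825), Pdia3 (−0.040, adjusted p = 0.838) and Phgdh (−0.46, adjusted p = 0.0160) by edgeR. Over all genes the split was then 2194 higher and 8514 lower (20.5% higher, against 48.0% with TMM). Of the 25 called genes, 11 kept call and direction in every alternative run, and 13 of the 40 changed in total-count scaling only. Leaving out 1 library gave 7269 to 8106 called genes, 16 to 20 genes of the list higher, 4 to 5 lower, 47 to 49 related genes higher, 11 to 12 lower and medians of 0.45 to 0.58. Of all genes, 19.6% to 23% were higher and 20.6% to 24.1% lower in those runs. With the animal as a replicate block, 9336 genes were called (25.4% of all genes higher and 28.5% lower), with 22 of the 41 higher and 5 lower. Apart from Pdia6 and Hyou1 it changed no call among the 41. Without a filter on low counts Canx and Pdia3 were not called (adjusted p = 0.101 and 0.0897) and Hyou1 was (0.0143). DESeq2 called 24 higher and 5 lower, where 25.8% and 23.8% of all genes were. Without both libraries of Male2, 19 were higher and 4 lower, where 20.4% and 20.7% of all genes were. The Psat1 call was lost there (edgeR adjusted p = 0.0637). Depth limits Chac1 most, at 27 counts in its lowest library. Counts for genes of the list with overlapping antisense exons (Atf5, Dnajb9, Manf, Pdia3, Shmt2 and Syvn1 among those called) are uncertain, since the strand setting is not known.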
